A study of Mus musculus with 14 samples.

Results

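The genes described here are Cxcl1 (gene ID 14825), Cxcl2 (20310) and Cxcl3 (330122), which encode chemokines that bind the receptor CXCR2. They were taken as the rows with those symbols, 3 of the 12924 genes in each of the 2 deposited tables, and each was measured and tested in both tables, over all 14 libraries. The tumors were flank tumors of C57BL/6 mice, grown for 14 days from LLC cells, the Lewis lung carcinoma line. The groups were CD11b+Gr1- cells of p110g-/- mice (4 libraries), CD11b+Gr1- cells of WT mice (4 libraries), whole tumor of p110g-/- mice (3 libraries) and whole tumor of WT mice (3 libraries). The labels call the sorted cells tumor-associated macrophages (TAM). RNA came from 30 mg of tumor or from 1000000 sorted cells. All mice carried the same tumor line, and the p110g-/- mice lacked p110 gamma, the PI3K gamma catalytic subunit encoded by Pik3cg, in the host. No label restricts the deletion to a cell type, so host cells other than macrophages in the tumors of p110g-/- mice are p110g-/- too. The labels do not state whether libraries are separate animals, so the spread behind each p-value is that between these samples and may be technical.

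CXCR2 is the main receptor by which mouse neutrophils follow chemokines out of the blood and into inflamed tissue. Cxcl1, Cxcl2 and Cxcl3 carry the ELR motif that CXCR2 ligands share, and macrophages, fibroblasts, endothelium and carcinoma cells can all make them. Their transcription is switched on within a short time by NF-kB after signals such as interleukin-1, tumor necrosis factor or Toll-like receptor ligands, and their mRNAs are short-lived because AU-rich elements in the 3′ untranslated region recruit decay factors.

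The members lie in one chemokine cluster on chromosome 5, where the reference gene table (GRCm38.p6) gives the order Cxcl5, Ppbp, Pf4, Cxcl3, Cxcl15, Cxcl1, Cxcl2. Promoter entries were found for 3 of 3 members in the RefSeq table of build GRCm38.p6. The 150 bases before each start site, on the plus strand, are shown because the same run of bases, a sequence of the kind NF-kB binds, stands in each of them. Capitals mark GGGAATTTCCC, which at 11 bases is the longest run shared by all 3, and the TATA-like ATAAAA.
Cxcl1, chr5:90891095-90891244: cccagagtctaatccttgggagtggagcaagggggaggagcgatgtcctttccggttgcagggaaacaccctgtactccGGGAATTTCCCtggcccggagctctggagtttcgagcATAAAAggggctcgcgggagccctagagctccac
Cxcl2, chr5:90903749-90903898: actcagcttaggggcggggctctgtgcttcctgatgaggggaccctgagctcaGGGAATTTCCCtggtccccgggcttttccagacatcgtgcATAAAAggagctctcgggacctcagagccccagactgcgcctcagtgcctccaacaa
Cxcl3, chr5:90785951-90786100: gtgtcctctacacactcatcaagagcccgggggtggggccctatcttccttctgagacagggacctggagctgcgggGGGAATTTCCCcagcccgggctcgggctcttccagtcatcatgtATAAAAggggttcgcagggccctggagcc
GGGAATTTCCC began 71 bases upstream of the start in Cxcl1, 97 in Cxcl2 and 73 in Cxcl3. Over windows of 250 bases before the start, searched on both strands, it was in 14 of 32851 RefSeq promoters (0.0426%), the members included. The wider NF-kB consensus was in 3.90% of promoters, and its matches in the members overlapped GGGAATTTCCC on both strands. ATAAAA, searched on the strand of the gene, was in 10.2% of promoters and began 34, 57 and 29 bases upstream in Cxcl1, Cxcl2 and Cxcl3. The AP-1 motif TGANTCA, searched on both strands, was in 6.75% of promoters and was not found in the windows of the members. Of the neighbouring and interferon-linked chemokine genes with an entry, Ppbp, Pf4 and Cxcl9 had no match to the NF-kB consensus, and Cxcl10 had 2. A match is a description of letters, not of binding.

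The 3′ untranslated regions held AU-rich pentamers at unequal number. In the GENCODE M21 transcripts, ATTTA occurred 7 times in Cxcl1, 11 times in Cxcl2 and 5 times in Cxcl3, and the nonamer TTATTTATT occurred 2, 4 and 1 times. As many nonamers as in Cxcl2 or more were found in 0.167% of 19179 genes, against 1.38% for the number in Cxcl1 and 6.42% for the number in Cxcl3. Cxcl5, Ppbp, Pf4, Cxcl9 and Cxcl10 had 0 nonamers. Cxcl2 and Cxcl3 share a run of 110 bases, and 5.75% of the 50-base windows of Cxcl2 and 6.31% of those of Cxcl3 occur in the other; Cxcl1 had 0 shared windows. The treatment of reads from shared stretches is not known from the sources used here, so the split of reads between Cxcl2 and Cxcl3 is uncertain. Cxcl2 was 2.30 to 26.5 times as high as Cxcl3, so this bears on Cxcl3 far more than on Cxcl2. If reads lay evenly along the transcript, those of Cxcl2 in shared windows would amount to 13.2% to 54.2% of the Cxcl3 value in 11 of the 14 libraries. They would amount to 152.5% in p110g-/- TAM 1, 107% in p110g-/- tumor 2 and 86.5% in p110g-/- tumor 3. The Cxcl3 values and the ratios of Cxcl3 to other genes below carry that uncertainty.

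Values are the authors' normalized counts, which are gene counts scaled by 1 factor per library and rounded. Library totals lay between 33248294 and 38153438 in TAM and between 25883561 and 27586429 in whole tumor, with an estimated depth of 19.7 to 40.7 M reads in TAM and 32.1 to 44.6 M in tumor. The lowest value of a member, 155 for Cxcl1 in WT TAM 2, stood for about 144 reads, a counting error of 8.33%, and PCR copies are not independent molecules, so this covers counting error only. Pik3cg, the targeted gene, averaged 1756 ± 526 normalized counts in p110g-/- TAM and 3510 ± 767 in WT TAM (SD, n = 4 each), and 313 ± 92.2 in p110g-/- tumor and 543 ± 66.0 in WT tumor (SD, n = 3 each). It was below every WT library in every p110g-/- library of both tables, though not at 0; the place of the deletion relative to the reads is not known from the sources used here. The 11 macrophage markers in the tables summed to 372274 to 456955 in p110g-/- TAM and 342524 to 434165 in WT TAM, against 66459 to 88297 in p110g-/- tumor and 55582 to 78190 in WT tumor. Between the genotypes in TAM, 5 of them were higher and 6 lower in p110g-/-. In the fit with the library number as a block, described below, Cd14 was called higher and Fcgr1 lower (2.50% of all genes called). The TAM sums include both. The TAM libraries numbered 1 stood apart from the others in both genotypes. Their 7 monocyte markers summed to 89286 in p110g-/- and 93984 in WT, where the other TAM libraries lay between 31020 and 49646, and their 10 fibroblast and matrix markers summed to 738 and 2622, where the others lay between 8743 and 53579. The TAM values of the members, and of the other genes called there, are therefore also given without them, an alternative chosen after seeing the data.

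Cxcl2 was the most abundant member, and it was about 3 times as high in p110g-/- TAM as in WT TAM. It had 24433, 10302, 15143 and 15625 normalized counts in p110g-/- TAM libraries 1 to 4, against 12963, 3105, 2472 and 3023 in WT TAM libraries 1 to 4. The groups overlapped through a single library, WT TAM 1, which lay above p110g-/- TAM 2. The means were 16376 ± 5885 in p110g-/- TAM and 5391 ± 5056 in WT TAM (SD, n = 4 each), a ratio of 3.04. On the log2(normalized count + 1) scale the difference was 1.91 (SE 0.52, 95% interval 0.72 to 3.10).

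Cxcl1, the mouse counterpart of a growth-regulated oncogene chemokine and a neutrophil attractant, followed the same pattern at a lower level. It had 851, 508, 1511 and 1697 normalized counts in p110g-/- TAM libraries 1 to 4, against 665, 155, 374 and 393 in WT TAM libraries 1 to 4. Here too WT TAM 1 was above p110g-/- TAM 2 and the remaining WT libraries were below every p110g-/- library. The means were 1142 ± 557 in p110g-/- TAM and 397 ± 209 in WT TAM (SD, n = 4 each), and the log2 difference was 1.55 (SE 0.51, 95% interval 0.38 to 2.71).

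Cxcl3, a close relative of Cxcl2 that also attracts neutrophils, turned on a single library. It had 922, 1398, 2279 and 2531 normalized counts in p110g-/- TAM libraries 1 to 4, against 5639, 333, 465 and 445 in WT TAM libraries 1 to 4. WT TAM 1 was the highest of all 8 libraries, and the other WT libraries were the lowest. The means were nearly the same, 1782.5 ± 752 in p110g-/- TAM and 1720.5 ± 2613 in WT TAM (SD, n = 4 each), while the medians were 1838.5 in p110g-/- TAM and 455 in WT TAM. The log2 difference was 1.06 (SE 0.86, 95% interval -0.91 to 3.03).

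**Figure D1:**
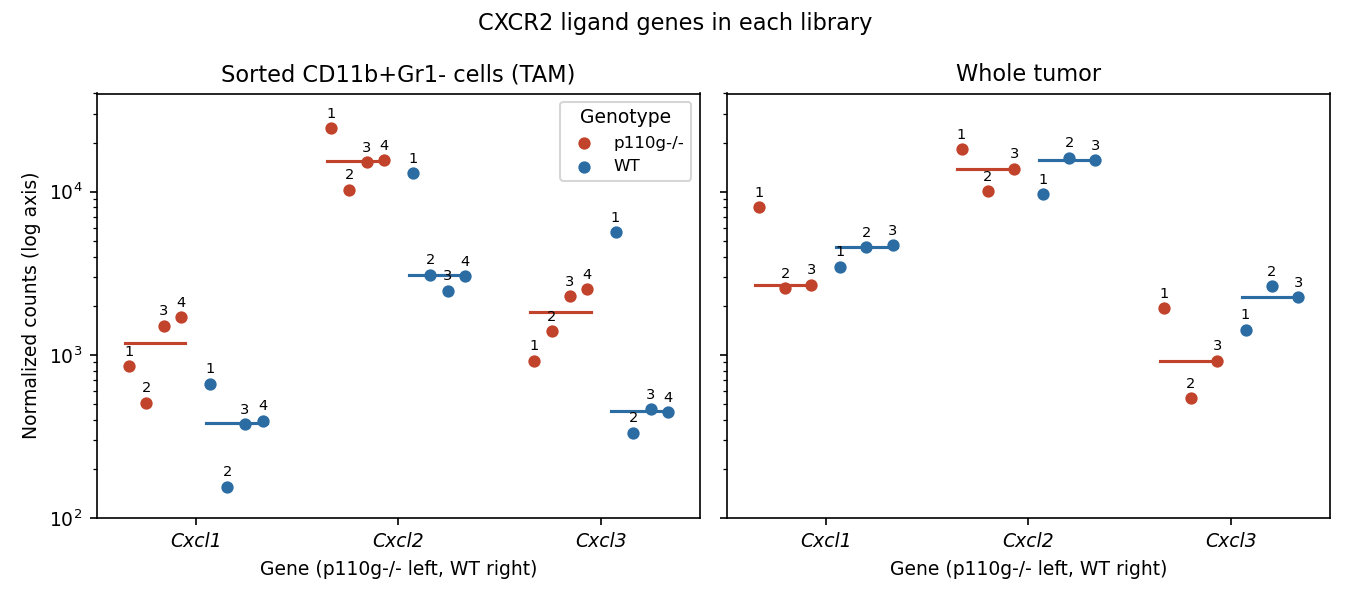
Normalized counts of Cxcl1, Cxcl2 and Cxcl3 on a log axis, in sorted CD11b+Gr1- cells (left panel) and whole tumor (right panel); each point is a library with its number, p110g-/- left and WT right, and bars are medians. In TAM, WT library 1 lies above the other WT libraries for every member, at 12963 for Cxcl2 and 5639 for Cxcl3; in whole tumor the genotypes overlap for every member.

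Without a term for the library number, 0 of 3 members were called in TAM at an adjusted p below 0.05 (limma, Benjamini-Hochberg over 12475 genes), where 0.112% of all genes tested were called. The adjusted p was 0.417 for Cxcl2, 0.595 for Cxcl1 and 0.999 for Cxcl3. At an unadjusted p below 0.05 there were 2 of 3 members, Cxcl2 (0.00585 by limma) and Cxcl1 (0.0154 by limma), against 5.87% of all genes. An exact two-sided permutation test of each member over the 70 relabelings, whose smallest possible p is 0.0286, gave 0.0571 for Cxcl1, 0.0571 for Cxcl2 and 0.343 for Cxcl3.

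Same-numbered TAM libraries deviated together from their group means, so the number was also fitted as a block. Libraries 3 and 4 did so across numbers as well, so the data do not tell pairs 3 and 4 apart. With it, Cxcl2 rose in p110g-/- TAM (log2 difference 1.91, SE 0.26, limma adjusted p = 0.0172) and so did Cxcl1 (1.55, SE 0.28, limma adjusted p = 0.0470), while Cxcl3 was not called (1.06, SE 0.83, limma adjusted p = 0.548). That made 2 of 3 members called with the block, both higher in p110g-/-, where 2.50% of all genes were called and 1.01% were called higher. Cxcl1 was 1.28, 3.28, 4.04 and 4.32 times as high in p110g-/- as in WT in pairs 1 to 4. For Cxcl2 the ratios of p110g-/- to WT were 1.89, 3.32, 6.13 and 5.17. Both genes were thus higher in p110g-/- in 4 of 4 pairs, as were 11.2% of all genes. Both calls needed all 4 pairs or the loss of pair 1: without pair 2, 3 or 4 the limma adjusted p with the block was 0.105, 0.0625 and 0.0809 for Cxcl2 and 0.196, 0.153 and 0.176 for Cxcl1, with 0.625% to 0.794% of all genes called. For Cxcl3 the ratios of p110g-/- to WT were 0.164, 4.20, 4.90 and 5.69, so pair 1 ran the other way. In pairs 2, 3 and 4 all 3 members differed by more than 1 on the log2 scale, as did 0.553% of all genes.

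Some monocyte markers moved with the genotype in the same fit. Of 7 tested, 2 were called with the block (2.50% of all genes) and both were lower in p110g-/- TAM, 5 were negative, and 0 were called without the block (0.112% of all genes). Ly6c2, a surface marker of inflammatory monocytes, had 315, 80, 149 and 134 normalized counts in p110g-/- TAM libraries 1 to 4, against 1415, 475, 396 and 483 in WT TAM libraries 1 to 4. The groups did not overlap, as was so for 4.30% of all genes in TAM. The log2 difference was -1.99 (limma adjusted p = 0.00604 with the block and 0.360 without it). Plac8 was at -1.30 (limma adjusted p = 0.00805 with the block and 0.999 without it), while Ccr2, the monocyte chemokine receptor, was at -0.15. The summed markers overlapped between the genotypes, at 31020 to 89286 in p110g-/- TAM and 38608 to 93984 in WT TAM, and 0 of 7 were at 0. Without the libraries numbered 1, Ly6c2 was at -1.93 (limma adjusted p = 0.00846 with the block) and Plac8 at -1.46 (limma adjusted p = 0.00233 with the block). Chil3, another of the 7, went the other way in that fit, at 1.65 (limma adjusted p = 0.0418 with the block). Of the 7, 1 was thus called higher and 2 lower, where 4.88% of all genes were called. The part of the monocyte markers in the ligand values was not tested.

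**Figure D2:**
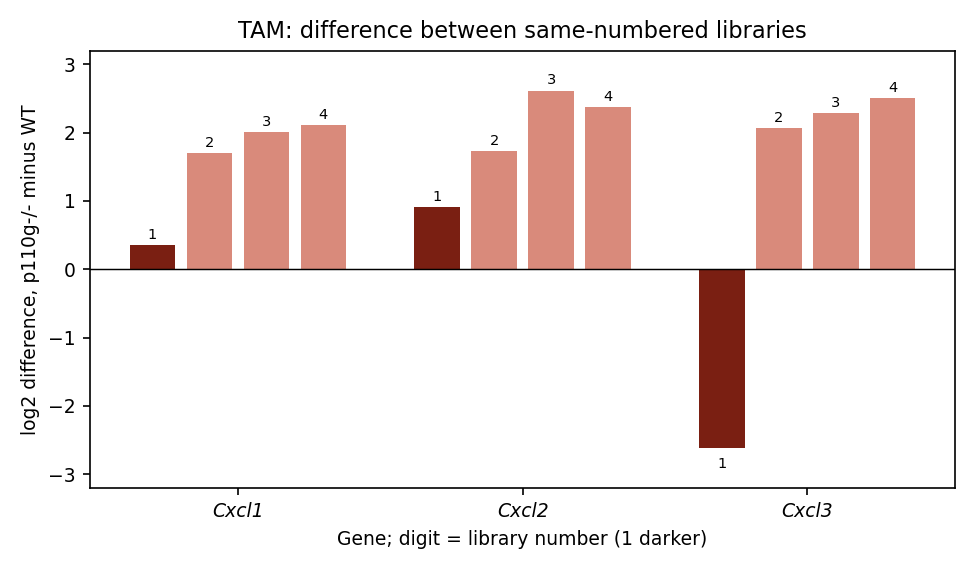
Difference between same-numbered TAM libraries, p110g-/- minus WT, on the log2 scale, for the 4 numbers of each member; darker bars are the libraries numbered 1. All bars are above 0 except number 1 of Cxcl3, at -2.61, and number 1 is the smallest bar of Cxcl1 and Cxcl2.

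Leaving out both TAM libraries numbered 1 gave log2 differences of 1.94 for Cxcl1, 2.24 for Cxcl2 and 2.29 for Cxcl3. With the block on the remaining pairs all 3 members were called (limma adjusted p = 0.00105, 0.00178 and 0.000596 in that order), where 4.88% of all genes were called. Without the block Cxcl2 (limma adjusted p = 0.00568) and Cxcl3 (limma adjusted p = 0.0120) were called and Cxcl1 was not (limma adjusted p = 0.236), where 1.07% of all genes were called. Leaving out WT TAM 1 alone gave 2.45 for Cxcl2, the sole member called (limma adjusted p = 0.0192), 1.85 for Cxcl1 (0.258) and 2.01 for Cxcl3 (0.0878), where 0.321% of all genes were called.

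In whole tumor, where macrophage RNA is mixed with that of carcinoma and stroma, no member was called between the genotypes. Cxcl2 had 18252, 10037 and 13829 normalized counts in p110g-/- tumors 1 to 3, against 9622, 16143 and 15599 in WT tumors 1 to 3. The ranges lay on top of each other, and the log2 difference was 0.02 (SE 0.25, 95% interval -0.56 to 0.61, limma adjusted p = 0.969). Cxcl1 had 8047, 2553 and 2689 normalized counts in p110g-/- tumors 1 to 3, against 3468, 4577 and 4697 in WT tumors 1 to 3. One p110g-/- tumor was the highest of the 6 and the other two were the lowest, and the log2 difference was -0.14 (SE 0.40, 95% interval -1.07 to 0.78, limma adjusted p = 0.852). Cxcl3 had 1937, 541 and 920 normalized counts in p110g-/- tumors 1 to 3, against 1421, 2640 and 2257 in WT tumors 1 to 3. Its log2 difference was -1.04 (SE 0.43, 95% interval -2.04 to -0.05, limma adjusted p = 0.175), and p110g-/- tumor 1 lay inside the WT range. In bulk tissue, fewer cells of a type and less RNA per cell cannot be told apart.

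The count of members called in whole tumor was 0 of 3 by limma, where 4.35% of 12717 genes were called, and at an unadjusted p below 0.05 it was 1 of 3, Cxcl3 (0.0418 by limma), against 26.2% of all genes. The exact two-sided permutation test over 20 relabelings, which cannot go below p = 0.1, gave 0.9 for Cxcl1, 0.9 for Cxcl2 and 0.2 for Cxcl3. In neither table did the libraries of a member separate by genotype, which 4.30% of genes did in TAM and 31.0% in whole tumor. Without p110g-/- tumor 1, Cxcl1 (log2 difference -0.68, limma adjusted p = 0.0203) and Cxcl3 (-1.53, limma adjusted p = 0.0226) were lower in p110g-/- tumor, and Cxcl2 was at -0.19 (0.603). That made 2 of 3 members called, where 15.7% of all genes were called in the same fit. That tumor held 23389 summed normalized counts of 13 neutrophil markers, the most of the 6 tumors; the part of this in the result was not tested.

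The genotype effects in TAM and in whole tumor were set against each other in 1 fit over the 14 libraries. The TAM effect minus the tumor effect was 1.69 for Cxcl1 (SE 0.77, limma adjusted p = 0.754), 1.89 for Cxcl2 (SE 0.71, limma adjusted p = 0.588) and 2.11 for Cxcl3 (SE 1.18, limma adjusted p = 0.900). None of the 3 members was called, where 0.145% of 12396 genes were, and Cxcl1 (0.0473 by limma) and Cxcl2 (0.0201 by limma) had an unadjusted p below 0.05, as did 6.49% of all genes. With the block none was called either, where 2.64% of genes were. With the libraries numbered 1 of both tables left out, the difference was called for Cxcl2 (2.67, limma adjusted p = 0.00558) and Cxcl3 (4.08, limma adjusted p = 0.00555), where 1.27% of genes were, and not for Cxcl1 (2.76, limma adjusted p = 0.169). This setting was chosen after seeing the data, and the tumor numbers were not taken to pair libraries. It kept only tumors 2 and 3 of each genotype. It dropped p110g-/- tumor 1, the highest tumor for Cxcl1 and Cxcl2, and WT tumor 1, the lowest WT tumor for all 3 members.

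**Figure D3:**
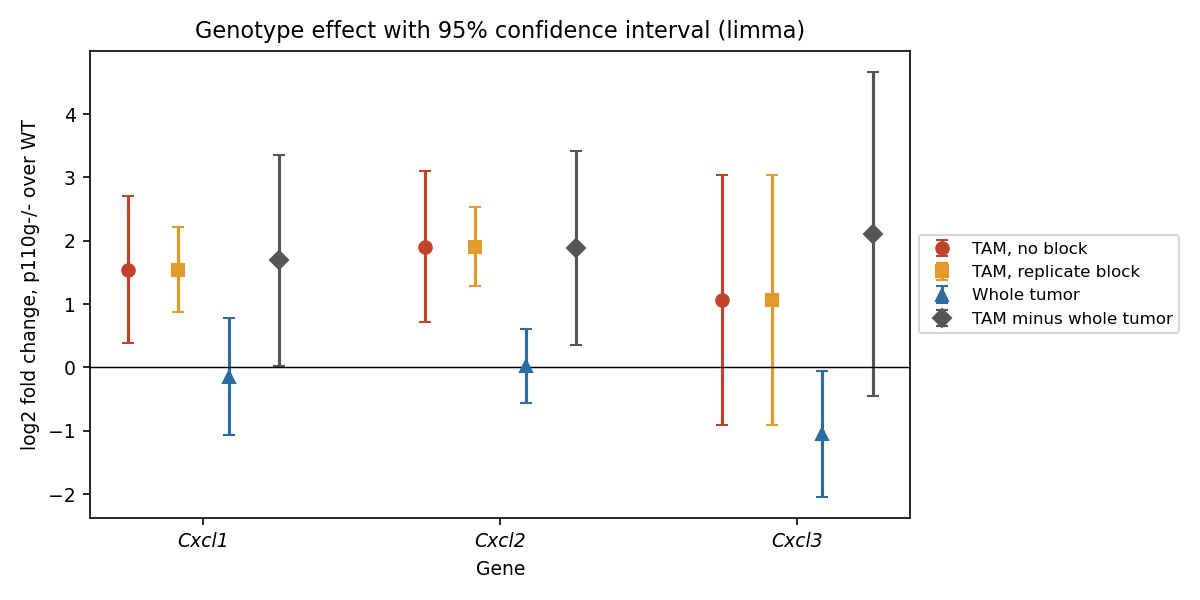
Log2 fold change of p110g-/- over WT for each member with its 95% confidence interval from limma, for TAM without and with the library number as a block, for whole tumor, and for the TAM effect minus the whole tumor effect. The block narrows the intervals of Cxcl1 and Cxcl2, and the interval of Cxcl3 in TAM spans 0 in both fits.

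The levels of the members differed between sorted cells and tumor in unequal measure. The 2 tables were normalized separately, so levels are given per M (1000000) of each library's total and carry no test. Cxcl1 averaged 32.2 ± 14.5 per M in p110g-/- TAM and 165 ± 113 in p110g-/- tumor, and 11.7 ± 6.02 in WT TAM and 155 ± 24.2 in WT tumor (SD, n = 4 TAM and 3 tumors). The ratio of TAM to tumor was 0.195 in p110g-/- and 0.0755 in WT. Cxcl2 averaged 470 ± 183 per M in p110g-/- TAM and 527 ± 141 in p110g-/- tumor, and 158 ± 146 in WT TAM and 504 ± 131 in WT tumor, with TAM to tumor ratios of 0.893 in p110g-/- and 0.315 in WT. Cxcl3 averaged 50.2 ± 19.3 per M in p110g-/- TAM and 42.3 ± 26.0 in p110g-/- tumor, and 50.3 ± 75.9 in WT TAM and 76.9 ± 22.8 in WT tumor. Its order between TAM and tumor did not go beyond the spread in p110g-/-. In WT the mean in TAM rests on WT TAM 1, which was at 164 per M, while the WT median was 13.5 per M.

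Per kilobase of transcript the order of the members, as counted, was not the same in TAM and tumor. Cxcl2 was the highest in 8 of 8 TAM and in 6 of 6 tumor libraries, at means of 424 per M and kilobase in p110g-/- TAM and 143 in WT TAM, and of 475 in p110g-/- tumor and 454 in WT tumor. Cxcl3 was above Cxcl1 in 8 of 8 TAM libraries, at means of 49.5 and 33.7 per M and kilobase in p110g-/-, and of 49.5 and 12.3 in WT. The WT mean of Cxcl3 rests on WT TAM 1, at 164 per M against a WT median of 13.5. In p110g-/- TAM 1 Cxcl3 and Cxcl1 were close, at 922 and 851 normalized counts. If reads lay evenly, those of Cxcl2 in shared windows would amount to 13.2% to 152.5% of Cxcl3 in TAM. The order of Cxcl3 and Cxcl1 in TAM is therefore uncertain. Cxcl1 was above Cxcl3 in 6 of 6 tumors, at 173 and 41.6 per M and kilobase in p110g-/- and 163 and 75.7 in WT.

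A ratio of members within a library does not depend on the scaling of that library. Cxcl1 was 3.48%, 4.93%, 9.98% and 10.9% of Cxcl2 in p110g-/- TAM libraries 1 to 4, and 5.13%, 4.99%, 15.1% and 13% in WT TAM. In whole tumor it was 44.1%, 25.4% and 19.4% of Cxcl2 in p110g-/- and 36.0%, 28.4% and 30.1% in WT, so that every TAM library was below every tumor. Within TAM the share was lowest in libraries 1 and 2 of both genotypes. The mitochondrial part of all normalized counts split the same libraries, at 2.73%, 3.21%, 9.01% and 14.4% in p110g-/- TAM libraries 1 to 4 and 2.51%, 3.06%, 7.70% and 9.59% in WT TAM. The fibroblast and matrix markers split these libraries too. Their sums were 738, 8743, 41672 and 30439 in p110g-/- TAM and 2622, 26194, 47998 and 53579 in WT TAM, against 192490 to 218369 in the tumors. Neither followed the share in every library. WT TAM 1 and 2, with marker sums of 2622 and 26194, had nearly the same Cxcl1 share. The mitochondrial part was higher in p110g-/- TAM 4 than in WT TAM 4 (14.4% against 9.59%), where the Cxcl1 share was lower (10.9% against 13%). Of these 10 markers, 10 were above 0 in every library, and neither their part nor that of the mitochondrial share in the ratio was tested.

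Cxcl3 was 3.77%, 13.6%, 15.05% and 16.2% of Cxcl2 in p110g-/- TAM libraries 1 to 4, against 43.5%, 10.7%, 18.8% and 14.7% in WT TAM. In libraries 2 to 4 the genotypes overlapped, and library 1 held both the lowest and the highest value. In whole tumor it was 10.6%, 5.39% and 6.65% of Cxcl2 in p110g-/- tumors 1 to 3, against 14.8%, 16.4% and 14.5% in WT tumors 1 to 3. The tumor genotypes did not overlap, and the log2 ratio was lower by 1.07 in p110g-/- (exact two-sided permutation p = 0.1, the smallest that 3 against 3 allows, and 0.3 adjusted over 6 ratio tests). The ratio of Cxcl1 to Cxcl3 did not overlap in the tumors either, at 4.15, 4.72 and 2.92 in p110g-/- and 2.44, 1.73 and 2.08 in WT (log2 difference 0.90, exact permutation p = 0.1). In TAM the lowest exact permutation p of a ratio between the genotypes was 0.371, for Cxcl3 to Cxcl2. Without the libraries numbered 1 that ratio differed by 0.05 on the log2 scale (exact permutation p = 0.8), and the exact permutation p of the other two ratios was 0.5. These ratio tests were added after seeing the data.

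**Figure D4:**
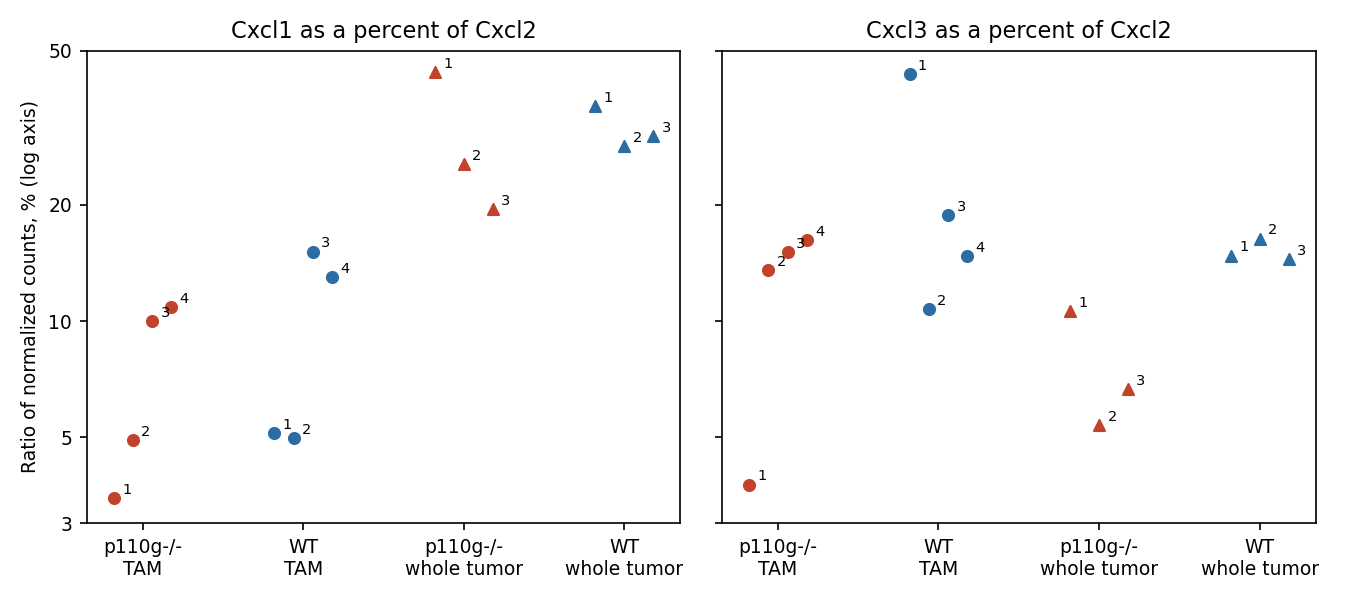
Cxcl1 (left panel) and Cxcl3 (right panel) as a percent of Cxcl2 within each library, on a log axis, for p110g-/- and WT TAM (circles) and whole tumor (triangles), each point a library with its number. Cxcl1 lies between 3.48% and 15.1% of Cxcl2 in TAM and between 19.4% and 44.1% in tumor; Cxcl3 in p110g-/- tumor, at 5.39% to 10.6%, lies below WT tumor, at 14.5% to 16.4%.

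The remaining CXC chemokines were read from the same tables. Cxcl5, another CXCR2 ligand of epithelial and stromal cells, had 15, 42, 233 and 149 normalized counts in p110g-/- TAM and 76, 67, 119 and 112 in WT TAM (log2 difference -0.39, limma adjusted p = 0.999). In whole tumor Cxcl5 had 1216, 337 and 479 in p110g-/- and 343, 375 and 405 in WT (0.64, limma adjusted p = 0.355), and p110g-/- tumor 1 was again the highest. Ppbp, the platelet basic protein gene whose processed product binds CXCR2, had 854, 1384, 1115 and 1583 in p110g-/- TAM and 3906, 486, 390 and 372 in WT TAM (0.73, limma adjusted p = 0.999). As with Cxcl3, WT TAM 1 was the highest and the other WT libraries were below every p110g-/- library. Ppbp was at 1.70 without the libraries numbered 1 (limma adjusted p = 0.00229 with the block). In whole tumor Ppbp had 226, 173 and 316 in p110g-/- and 262, 528 and 700 in WT (-0.99, limma adjusted p = 0.137). Pf4, platelet factor 4, had 4666, 9128, 7532 and 8070 in p110g-/- TAM and 10311, 4796, 5579 and 5150 in WT TAM (0.22, limma adjusted p = 0.999), and it was at -0.40 in tumor. In TAM it was at 0.67 without the libraries numbered 1 (limma adjusted p = 0.0157 with the block).

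The chemokines that bind CXCR3 instead, which recruit T and NK cells, were higher in whole tumor of p110g-/- mice. Cxcl9 rose (log2 difference 3.45, limma adjusted p = 0.0142), with 1299, 2259 and 2828 normalized counts in p110g-/- tumors and 95, 196 and 336 in WT tumors. Cxcl10 (1.36, limma adjusted p = 0.0286) and Cxcl11 (2.05, limma adjusted p = 0.0423) rose as well. Leaving out 1 tumor at a time brought the limma adjusted p as high as 0.0742 for Cxcl9, 0.103 for Cxcl10 and 0.141 for Cxcl11, with a positive difference throughout. The T and NK cell markers went in the same direction, 10 of 10 of them positive and 5 called, where 4.35% of all genes were called. Their summed normalized counts were 847 to 1426 in p110g-/- tumor and 248 to 520 in WT tumor. The part of these markers in the chemokine values was not tested. In TAM, Cxcl9 was called with the block (1.16, limma adjusted p = 0.0149, and 0.291 without it), and Cxcl10 (-0.37) and Cxcl11 (-0.57) were not. Cxcl14, whose receptor is not settled, was called in TAM with the block (0.87, limma adjusted p = 0.0210, and 0.718 without it) and was at 0.47 in tumor. Cxcl12, the CXCR4 ligand, was at -0.40 in TAM, where it had 1 to 32 normalized counts, and at 0.65 in tumor. Cxcl16, a membrane-bound chemokine, was at 0.11 in TAM and 0.36 in tumor. Cxcl13, Cxcl15 and Cxcl17 were not analysed here. Of 9 other CXC chemokines tested, 0 were called in TAM without the block (0.112% of all genes) and 2, Cxcl9 and Cxcl14, with it (2.50%). Without the libraries numbered 1 and with the block there were 5 (4.88%): Cxcl9 (1.06, limma adjusted p = 0.0170), Cxcl14 (0.87, limma adjusted p = 0.0257), Ppbp and Pf4 were higher, and Cxcl10 was lower (-0.46, limma adjusted p = 0.0273). In whole tumor 3 were called, all higher, where 4.35% of all genes were called.

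**Figure D5:**
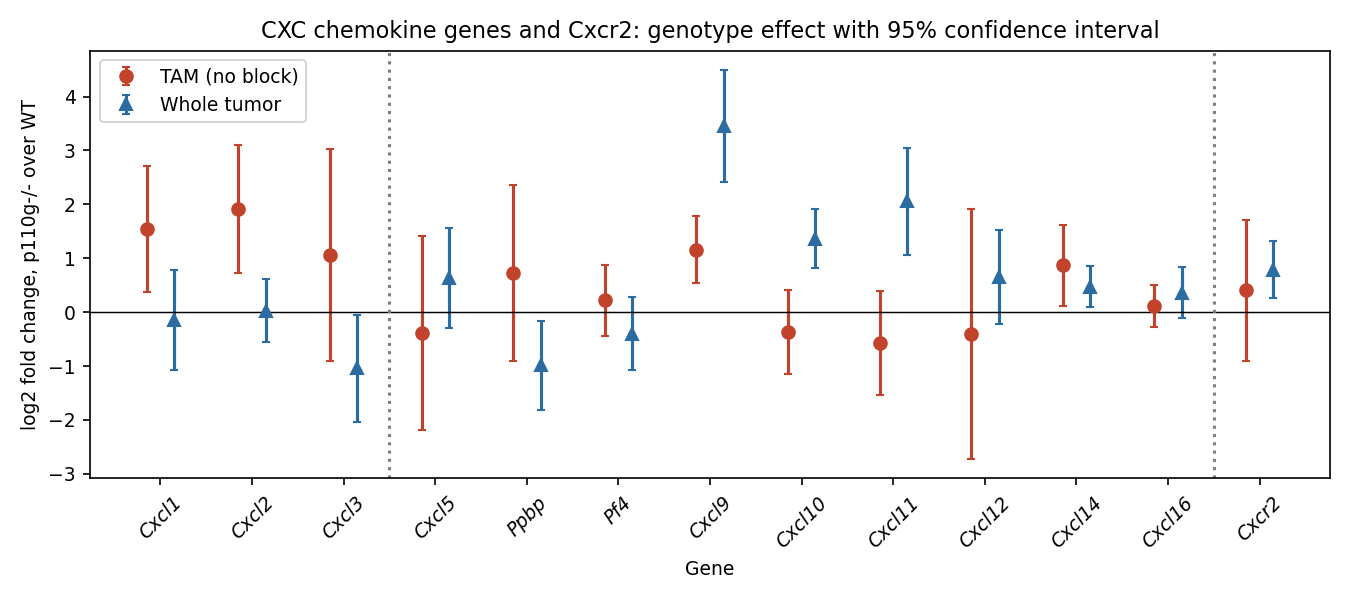
Log2 fold change of p110g-/- over WT with its 95% confidence interval (limma, no block) for the CXCR2 ligand genes Cxcl1, Cxcl2 and Cxcl3, the other CXC chemokine genes and Cxcr2, in TAM (circles) and whole tumor (triangles). Cxcl9, Cxcl10 and Cxcl11 stand at 3.45, 1.36 and 2.05 in whole tumor, and the intervals of Cxcl3 and Ppbp in TAM span 0.

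The receptor gene Cxcr2 was low in the sorted cells, with 102, 19, 37 and 70 normalized counts in p110g-/- TAM and 67, 23, 25 and 42 in WT TAM (log2 difference 0.40, limma adjusted p = 0.999). In whole tumor it had 830, 436 and 709 in p110g-/- and 308, 412 and 394 in WT. Those groups did not overlap, as was so for 31.0% of all genes in whole tumor. The log2 difference was 0.78 (SE 0.23, limma adjusted p = 0.0883). Cxcr1, Ackr1 and Ackr2 were not analysed here. The sort had removed Gr1+ cells, which include neutrophils. Of 18 listed neutrophil markers 13 were in the tables, and they summed to 15565 to 21105 normalized counts in p110g-/- TAM and 10612 to 17345 in WT TAM. Much of these sums was Mmp9, a gelatinase that macrophages make as well, with 8331 to 17798 in p110g-/- TAM and 3997 to 14946 in WT TAM. S100a8, a calgranulin gene abundant in neutrophils, was far lower, with 101 to 266 in p110g-/- TAM and 31 to 232 in WT TAM, against 1690 to 3117 in p110g-/- tumor and 1953 to 2802 in WT tumor. Mmp9 and S100a8, like Ly6c2, Plac8, Ccr2 and Chil3 above, were chosen after their values were seen. Retnlg was at 0 in some TAM libraries of both genotypes and Ltf in some of WT. Among the 11 tested in TAM, 10 were positive with a median log2 difference of 0.40, against -0.01 over all genes, and 1 was called with the block, Fpr1, a formyl peptide receptor of neutrophils and monocytes (1.66, limma adjusted p = 0.00739, and 0.576 without it). Fpr1 was at 1.82 without the libraries numbered 1 (limma adjusted p = 0.00330 with the block), where 4 of the 11 were called with the block, all higher (4.88% of all genes). In whole tumor the 13 summed to 16983 to 23389 in p110g-/- and 12815 to 20082 in WT, 11 of 13 were positive with a median of 0.65, and 0 were called by limma. Their part in the ligand values was not tested.

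Genes of the pathways that switch the ligands on were looked at as a list, which also holds Il1rn, the interleukin-1 receptor antagonist. Of 14 of these genes tested in TAM, 11 were positive and the median log2 difference was 0.46. Cd14, the lipopolysaccharide co-receptor, was called with the block (1.81, limma adjusted p = 0.0135, and 0.0621 without it). Without the libraries numbered 1 Cd14 was at 2.08 (limma adjusted p = 0.00229 with the block). In that fit with the block 5 of 14 were called, 4 of them higher, where 4.88% of all genes were called. Il1rn was among those 4, at 0.99 (limma adjusted p = 0.00973 with the block). Cd14 had 54199, 44362, 67571 and 68025 normalized counts in p110g-/- TAM and 26774, 15278, 13844 and 12870 in WT TAM. Its groups did not overlap, as was so for 4.30% of all genes in TAM. Il1b, the interleukin-1 beta gene, was at 0.70 (limma adjusted p = 0.870) and Tnf at 0.30 (0.999). In whole tumor 7 of 15 were positive, with a median of -0.01. Il1a, interleukin-1 alpha, fell (-1.70, limma adjusted p = 0.0282), with 479, 220 and 311 normalized counts in p110g-/- tumors and 781, 1381 and 1060 in WT tumors, and Osm, oncostatin M, fell (-1.09, limma adjusted p = 0.0436). With 1 tumor left out at a time the limma adjusted p reached 0.100 for Il1a and 0.140 for Osm. Il17a was not analysed here.

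Of 16 NF-kB subunit and feedback genes, 9 were positive in TAM, with a median log2 difference of 0.11. By limma 0 were called with or without the block. Without the libraries numbered 1, 3 were called with the block, all higher, where 4.88% of all genes were called. In whole tumor 14 of 16 were positive, with a median of 0.10, and Birc3, an inhibitor of apoptosis, rose (0.44, limma adjusted p = 0.0379, and up to 0.116 with 1 tumor left out). Tnfaip3, the A20 feedback inhibitor of NF-kB, was at 1.04 in TAM (limma adjusted p = 0.303, and 0.0659 with the block), and at 1.18 without the libraries numbered 1 (limma adjusted p = 0.0357 with the block). Of 10 regulators of AU-rich mRNA decay, 7 were positive in TAM, with a median of 0.05, and 1 was called with the block, Zfp36 (0.76, limma adjusted p = 0.0120, and 0.554 without it), which encodes tristetraprolin, a protein that binds AU-rich elements and shortens mRNA life. Zfp36 was at 0.74 without the libraries numbered 1 (limma adjusted p = 0.0149 with the block). In whole tumor 4 of 10 were positive and 0 were called. Tnfaip3, Il1b, Tnf and Il1rn were chosen after their values were seen.

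Immediate-early genes, which respond to stimuli and also to the dissociation of tissue, mostly had the same genotype direction as the members in TAM. Of 17, 16 were positive, the median log2 difference was 0.43, 6 did not overlap between the genotypes (4.30% of all genes), 5 were called with the block (2.50%) and 0 were called without it (0.112%). Fosb had 9287, 5120, 7762 and 9008 normalized counts in p110g-/- TAM and 2334, 3301, 1213 and 1753 in WT TAM (1.92, limma adjusted p = 0.0298 with the block and 0.101 without it). With the block the call also took in Dusp1 (1.04, limma adjusted p = 0.0279, and 0.360 without it), Fos (0.83, limma adjusted p = 0.00854, and 0.466 without it), Egr1 (0.79, limma adjusted p = 0.0213, and 0.184 without it) and Ier2 (0.36, limma adjusted p = 0.0475, and 0.392 without it). Without the libraries numbered 1 and with the block, 9 of 17 were called, all higher (4.88% of all genes), among them Fosb (1.89, limma adjusted p = 0.0357) and Dusp1 (1.16, limma adjusted p = 0.0144). In whole tumor, which was not sorted, 7 of 17 were positive, the median was -0.08 and 0 were called. The part of the immediate-early genes in the ligand values was not tested. Of 10 genes of neutrophil recruitment outside the CXC family, 7 were positive in TAM and Ptgs2, cyclooxygenase-2, was called with the block (0.80, limma adjusted p = 0.0132, and 0.946 without it). Ptgs2 was at 0.83 without the libraries numbered 1 (limma adjusted p = 0.0154 with the block). In whole tumor Selp, the endothelial P-selectin, rose (1.17, limma adjusted p = 0.0301, and up to 0.104 with 1 tumor left out).

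The genes whose levels ran most like those of the members were found by the root mean square (RMS) difference of log2 values, each centred within its table, over 14 libraries and 12393 other genes. For Cxcl1 they were Ramp3 (0.373), Dusp5 (0.398) and Mreg (0.410), where the spread of Cxcl1 itself was 0.881. For Cxcl2 they were Il7r (0.343), Arg2 (0.386) and Slc4a11 (0.399), where the spread of Cxcl2 was 0.942. For Cxcl3 they were Inhba (0.433), Ppbp (0.493) and Il6 (0.506), where its spread was 1.14. The members were less like one another than these genes were, at 0.608 between Cxcl1 and Cxcl2, 0.774 between Cxcl1 and Cxcl3, and 0.795 between Cxcl2 and Cxcl3. Il7r had 1207, 915, 1008 and 1015 normalized counts in p110g-/- TAM and 1224, 319, 306 and 234 in WT TAM, so that WT TAM 1 again stood with the p110g-/- libraries.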

How the data were processed

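RNA of 14 mouse libraries was sequenced on an Illumina HiSeq 2000, per the labels. The submitters' processing notes name the tools Bowtie2 and DESeq and the build mm9, without versions. Counter, annotation and scaling formula are unknown from the sources used here. There was 1 deposited table for TAM and 1 for whole tumor, each with 12924 genes. The unit of the authors' deposited values is a score: gene counts scaled by 1 factor per library and rounded, as read from the values. They are called normalized counts. The authors' deposited fraction per gene, headed pp, was not used because its meaning is not given. Depth was estimated from the step between values, tested on simulated data. The normalized counts are not raw counts, so limma 3.58.1 (R 4.3.3) was fitted with its trended prior to log2(normalized count + 1), over genes with at least 10 normalized counts in 4 TAM or 3 tumor libraries, two-sided, with Benjamini-Hochberg adjustment over all genes tested and a threshold of 0.05. Fold changes on this scale understate low genes. Rose and fell are used of genes past that threshold.

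The labels number the libraries. In TAM, libraries with the same number shared their deviations from the group mean (correlations of 0.847, 0.472, 0.808 and 0.702 over 12475 genes). The numbers were therefore taken to pair them, though no label says what a number marks. Across numbers, p110g-/- TAM 3 with WT TAM 4 was at 0.777 and p110g-/- TAM 4 with WT TAM 3 at 0.704. The correlations thus do not tell numbers 3 and 4 apart, and the pairing of these libraries rests on the labels' numbers alone. In whole tumor the correlations were 0.0947, 0.0763 and 0.178, and the numbers were not taken to pair them. Members, lists and tests were chosen with earlier results of these data known. Genes named besides the members were the other CXC chemokines and receptors, up to 4 called genes of each list, and the 3 most alike to each member; others are said to be chosen afterwards. Alternatives were another pseudocount, no filter, other scalings, quality weights, the block, 1 fit over 14 libraries and leaving out each library. Promoters are from RefSeq (GRCm38.p6) and transcripts from GENCODE M21, not of the files' build, so they serve for sequence only. Symbols turned into dates were renamed by identifier for 21 genes.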

Additional observations from a re-analysis of the deposited data

Results flagged for a closer look

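In groups of 4, Dixon's test at 95% marked 4 values among 26 tested groups, all in WT TAM 1. That library had 12963 normalized counts of Cxcl2, where the other WT TAM libraries had 2472 to 3105. It had 5639 of Cxcl3, where the others had 333 to 465. It had 3906 of Ppbp, where the others had 372 to 486, and 10311 of Pf4, where the others had 4796 to 5579. The same-numbered p110g-/- TAM library was the highest of its group for Cxcl2, at 24433, and the lowest for Cxcl3, at 922, for Ppbp, at 854, and for Pf4, at 4666. Chance marks about 1 in 20 groups, and the genes are neighbours whose values share the library. Groups of 3 were not tested, so no tumor value could be marked.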

How the results depend on the processing

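In TAM, Cxcl1, Cxcl2 and Cxcl3 kept a positive log2 difference under every setting run on the groups; pair 1 alone gave -2.61 for Cxcl3. The replicate block called Cxcl1 at 1.55 and Cxcl2 at 1.91, also with rescaling (1.55 and 1.91) and with pseudocount 4 (1.54 and 1.91). Quality weights, whose fit stopped before converging, called Cxcl1 at 1.96, Cxcl2 at 2.49 and Cxcl3 at 2.22 in TAM. In tumor they called Cxcl3 at -1.56 and put Cxcl2 at -0.26. They also called the differences between the effects, 2.51 for Cxcl1, 2.80 for Cxcl2 and 3.82 for Cxcl3. The fits with quality weights called far more of all genes than the main fits did, as counted in the next paragraph. Without both libraries numbered 1, TAM gave 1.94 for Cxcl1 (called with the block), 2.24 for Cxcl2 and 2.29 for Cxcl3, tumor gave -0.82 for Cxcl1, -0.43 for Cxcl2 and -1.79 for Cxcl3, Fos turned to -0.20 in tumor, and the difference of effects was 2.67 for Cxcl2 and 4.08 for Cxcl3. Quantile normalization put Zfp36 in tumor at 0.042. The cause was not tested. With the block and 1 pair of TAM libraries left out at a time, a setting added after seeing the data, the log2 difference was 1.36 to 1.94 for Cxcl1, 1.67 to 2.24 for Cxcl2 and 0.58 to 2.29 for Cxcl3, and only leaving out pair 1 called any of the 3.

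Genes called higher and lower in TAM, 9 and 5, became 126 and 186 with the block, 130 and 187 with the block and rescaling, 130 and 186 with the block and pseudocount 4, 654 and 345 with quality weights, 4 and 2 with quantile normalization, 48 and 40 in 1 fit of 14 libraries, and without the libraries numbered 1 72 and 61 (298 and 311 with the block). In whole tumor, 286 and 267 became 1154 and 1154 with quality weights, 13 and 2 in 1 fit, and 530 and 506 without the libraries numbered 1. For the difference, 5 and 13 became 625 and 624 with quality weights, 53 and 274 with the block, and 45 and 112 without the libraries numbered 1. In tumor the replicate block changed the count to 439 higher and called no member; its numbers did not pair the libraries.

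Leaving out 1 library at a time, the log2 difference ranged from 1.15 to 1.88 for Cxcl1, 1.66 to 2.45 for Cxcl2 and 0.65 to 2.01 for Cxcl3 in TAM, from -0.68 to 0.14, -0.22 to 0.24 and -1.53 to -0.61 in tumor, and from 1.30 to 2.23, 1.63 to 2.43 and 1.67 to 3.05 for the difference. Genes called ranged from 3 to 33 higher and 0 to 26 lower in TAM, 21 to 978 and 7 to 1022 in tumor, and 0 to 20 and 0 to 81 for the difference. The range crossed 0 in TAM for Birc3 (-0.0063 to 0.20) and Icam1 (-0.16 to 0.11), and in tumor for Zfp36 (-0.27 to 0.19), Fos (-0.11 to 0.28), Fosb (-0.44 to 0.21), Egr1 (-0.37 to 0.15) and Dusp1 (-0.29 to 0.056). With 4 or 3 libraries a group and no statement of separate animals, the intervals are wide, and a p above the threshold does not show that values did not differ.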
